A study of Homo sapiens with 39 samples.

Results

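Talazoparib, an inhibitor of poly(ADP-ribose) polymerases (PARPi), was compared with its solvent control at the level of RNA in C4-2B cells, an LNCaP-derived line that models castration-resistant prostate cancer. The comparison was chosen by the treatment labels and library names and comprised 3 libraries of cells given talazoparib at 10 nM and 3 of cells given DMSO, each for 5 days, which were 6 of the 39 libraries of the series. It was described across all genes, of which 18625 of the 63187 in the table held enough counts to be tested. Comparison groups from the same panel were olaparib at 1 µM, enzalutamide at 20 µM, and enzalutamide at 20 µM with talazoparib at 10 nM, with 3 libraries each after 5 days, all in the same line and serum-containing medium. Abiraterone acetate at 5 µM, alone and with olaparib at 1 µM, made up the other 6 of the 21 libraries in the fit, which share its estimate of the spread. One cell line was used, so the values describe that line, and no source used here says that replicates A to C came from separate cultures. The p-values therefore measure the spread between these libraries, which may be technical.

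As background, PARP1 and PARP2 bind breaks in DNA and mark nearby proteins with chains of ADP-ribose, which recruits repair factors. An inhibitor blocks this enzyme activity and can hold the enzyme on the DNA, and the lesions that follow during replication are repaired mainly by homologous recombination. Damaged DNA activates the kinases ATM and ATR and, through them, the transcription factor p53, whose target genes stop the cell cycle, start cell death or feed back on p53 itself. Among these targets p21, encoded by CDKN1A, is known to switch off genes of DNA replication and mitosis through the retinoblastoma family and the DREAM complex.

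The 6 libraries held between 29707578 and 49833473 counts, and values of single genes are given below as TMM-scaled CPM, the count of a gene relative to the library's total after edgeR's TMM scaling. Mitochondrially encoded genes took 9.68% to 10.1% of the counts with DMSO and 12.1% to 13.0% with talazoparib. Counts of replicates differed more than sampling of reads alone gives, with a chi-square per degree of freedom of 3.38 to 5.63 where sampling alone would give about 1. The 8 prostate luminal markers KLK2, KLK3, HOXB13, TMPRSS2, FOLH1, KRT8, KRT18 and SLC45A3 were detected in all 6 libraries, and their summed level was 3580 to 3790 CPM with DMSO and 4020 to 4180 CPM with talazoparib. Their members differed. With talazoparib KLK2, KLK3, TMPRSS2, KRT8 and SLC45A3 lay above all DMSO libraries, FOLH1 and KRT18 lay below them, and HOXB13 overlapped. Of the basal markers, KRT5 and TP63 had no count in any of the 6 libraries, and KRT14 had 23, 8 and 15 counts with DMSO and 39, 42 and 45 with talazoparib. Leukocyte markers summed to 4.38 to 7.09 CPM with DMSO and to 13.0 to 13.6 CPM with talazoparib, and CD68, a lysosomal protein gene, made up nearly all of it, while PTPRC and CD3E had at most 3 counts in each library. Sums for the neuroendocrine, fibroblast and endothelial markers were at most 16.6 CPM in every library.

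The breadth of the response was large and its size small. With talazoparib, 6300 genes passed an adjusted p of 0.05 by edgeR's quasi-likelihood test, 33.8% of those tested, of which 3435 (18.4% of those tested) were higher and 2865 (15.4%) were lower. Among the genes that passed, the median absolute log2 fold change was 0.264, 78.4% changed by less than 0.5, and 463 changed by at least 1, of which 394 were higher and 69 lower. Higher genes made up 54.5% of the calls, and when libraries were scaled by their total count in place of TMM, 2553 genes were higher and 3831 lower, so that the higher share was 40.0%. The median over all genes moved with it from 0.02 to -0.03 on the log2 scale. The higher share was also 49.2%, 49.5% and 49.1% without talazoparib A, B and C, and 49.4% when DMSO and talazoparib alone were fitted. The balance of small changes depends on the scaling and on the libraries used.

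Protein-coding genes passed the test more often than long non-coding RNAs, with 41.4% of 13995 against 11.8% of 3565. The share called moved with the level of the gene, when genes were cut by mean count into 5 bins of equal size, from 8.45% in the lowest bin to 56.4% in the highest, and the median absolute log2 fold change of the genes called went along the same bins from 1.45 to 0.168. Across 5 bins of protein-coding genes ordered by the length of the gene on the chromosome, the median log2 fold change relative to that of all genes went from 0.040 (SD over the 3 talazoparib libraries 0.013) in the bin of the shortest genes to -0.057 (SD 0.013) in the longest. Among the longest genes, 474 were higher and 728 lower, and among the shortest, 715 were higher and 327 lower. Ordered by the GC content of the longest transcript, the corresponding medians went from -0.051 (SD 0.027) in the bin lowest in GC to 0.080 (SD 0.035) in the highest, so GC content and gene length moved with the same difference and their parts in it were not tested.

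**Figure D1:**
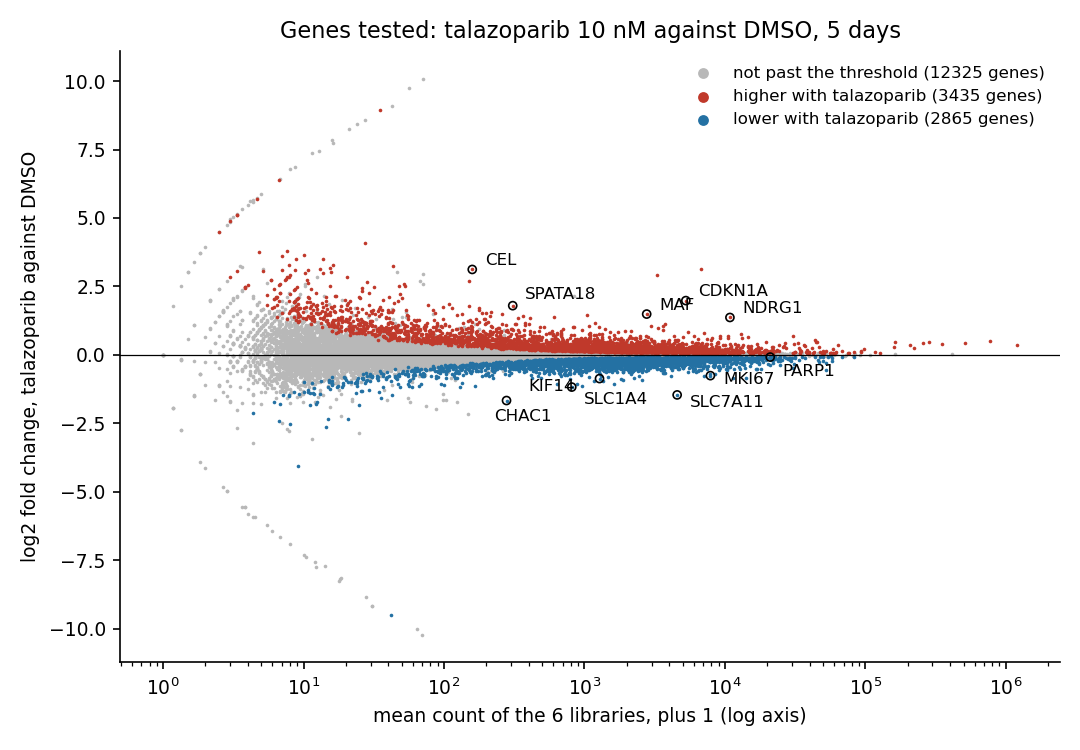
Log2 fold change of talazoparib against DMSO (vertical axis) for the 18625 genes tested, plotted against the mean count of the 6 libraries plus 1 on a log axis. Red and blue points passed the threshold as higher (3435) and lower (2865), grey points did not, and named genes are circled. Most colored points lie within 0.5 of zero, and the points far from zero at low counts on the left are mostly grey.

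Among protein-coding genes whose higher group averaged 100 counts or more, CEL, SERPIND1, SPATA18, IL32, LIF and CDKN1A were among the 12 that rose most. CEL, which encodes a bile salt-dependent lipase, was read at 0.849, 0.902 and 0.684 CPM with DMSO and at 6.60, 6.82 and 7.61 CPM with talazoparib. This was an 8.70-fold rise, a log2 fold change of 3.12 ± 0.13 (adjusted p = 6.49e-19, edgeR's quasi-likelihood test), where ± stands for the standard error here and below. CDKN1A (ENSG00000124762.14, GRCh38 chromosome 6 from 36676460 to 36687337), the gene of the cell cycle inhibitor p21, stood at 58.2, 57.3 and 46.8 CPM with DMSO and at 217, 211 and 212 CPM with talazoparib. All 3 talazoparib libraries lay well above all 3 DMSO libraries, with a log2 fold change of 1.98 ± 0.05 (adjusted p = 6.39e-16, edgeR). SERPIND1, which encodes a thrombin inhibitor, went from between 0.844 and 0.861 CPM to between 2.75 and 3.56 CPM, and LIF, a cytokine of the interleukin 6 family, from between 1.06 and 1.73 CPM to between 3.84 and 4.99 CPM. Others of the 12 were FAXDC2 (log2 fold change 1.79), IL32 (1.74), GPNMB (1.70), TUBA1A (1.65), ESPN (1.64) and FRMPD2 (1.56). TRIM49D1 had 1.85, but it belongs to a cluster of near-identical copies between which the counting can split reads, so its value is uncertain.

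The 12 largest falls were led by CHAC1 and SLC7A11. CHAC1, which degrades glutathione, was read at 12.2, 12.4 and 10.8 CPM with DMSO and at 3.19, 4.04 and 3.86 CPM with talazoparib, a 3.17-fold fall (log2 fold change -1.66 ± 0.12, adjusted p = 4.66e-13, edgeR). SLC7A11 (ENSG00000151012.13, chromosome 4 from 138164097 to 138242349), which exchanges cystine for glutamate across the plasma membrane, stood at 190, 190 and 176 CPM with DMSO and at 60.5, 68.8 and 72.5 CPM with talazoparib. It was 2.75-fold lower with no overlap between the groups (log2 fold change -1.46 ± 0.07, adjusted p = 8.03e-11, edgeR). The other falls of this size were RNF152 (log2 fold change -1.17), SLC1A4 (-1.17), CA8 (-1.13), SLC2A13 (-1.12), GLI3 (-1.08), NIBAN1 (-1.07), PAG1 (-1.05), BCAT1 (-0.95), RILPL2 (-0.93) and TRIB3 (-0.91). Of these, SLC1A4 carries neutral amino acids, BCAT1 transfers the amino group of branched-chain amino acids, TRIB3 is a pseudokinase of the stress response, and GLI3 is a transcription factor of Hedgehog signaling.

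Of the drug's own targets, PARP1 changed little and PARP2 was lower. PARP1, the most abundant nuclear PARP, stood at 568, 575 and 579 CPM with DMSO and at 547, 539 and 546 CPM with talazoparib. These groups did not overlap although they lay 1.06-fold apart (log2 fold change -0.08 ± 0.02, adjusted p = 0.00378, edgeR), and without the filter on low counts the adjusted p was 0.123. PARP2 was read at 35.2, 37.0 and 36.3 CPM against 28.2, 27.7 and 31.0 CPM, 1.25-fold lower with talazoparib (adjusted p = 2.30e-06, edgeR). PARG, which removes ADP-ribose chains, had overlapping groups and a log2 fold change of -0.01 (95% interval -0.08 to 0.06). Of 21 genes of the PARP family and of ADP-ribose removal that were tested, 6 rose (28.6%) and 4 fell (19.0%), beside 18.4% and 15.4% of all genes tested, with a median log2 fold change of -0.02 against 0.02. With total count scaling 5 rose and 7 fell. The risers were PARP10 (0.46), TIPARP (0.40), PARP3 (0.32), PARP12, PARP4 and PARP14, most of which add single ADP-ribose units, and HPF1, the partner of PARP1 and PARP2 that directs them to serine, was among the fallers (-0.20).

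Targets of p53 were higher as a group. Of 56 tested, 41 rose and 5 fell, with a median log2 fold change of 0.43 (range -0.68 to 2.21) beside 0.02 over all genes, of which 18.4% rose and 15.4% fell. Among genes that arrest the cell cycle, 9 of 11 rose and 1 fell, led by CDKN1A, BTG2 and GADD45A. BTG2, an antiproliferative regulator of mRNA decay, went from 15.5, 14.7 and 12.5 CPM to 38.7, 40.1 and 38.7 CPM (log2 fold change 1.47 ± 0.08), and GADD45A from between 4.48 and 6.25 CPM to between 9.07 and 11.4 CPM (0.93 ± 0.10). The groups did not overlap for either gene.

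Of the p53 targets with a role in cell death, 10 of 16 rose and 2 fell. SPATA18, which acts in the quality control of mitochondria, was read at 3.29, 3.61 and 3.52 CPM with DMSO and at 12.5, 11.3 and 12.6 CPM with talazoparib (log2 fold change 1.80 ± 0.09). PHLDA3, an inhibitor of AKT signaling, had a log2 fold change of 1.36 ± 0.08, and FAS, a death receptor, was read at 3.19, 3.05 and 2.35 CPM against 7.06, 6.75 and 7.50 CPM (1.32 ± 0.11). PMAIP1, which encodes the BH3-only protein NOXA, went the other way, from between 9.09 and 9.63 CPM to between 5.53 and 7.32 CPM, and APAF1 of the apoptosome also fell (-0.20). In the wider BCL2 family, 8 of 14 members rose (57.1%, beside 18.4% of all genes) and 3 fell (21.4%, beside 15.4%). BBC3, which encodes PUMA, was up by 0.93 ± 0.16 and BIK by 0.58 ± 0.10 on the log2 scale, BAX was up by 0.40, and BCL2, which protects from death, was at -0.53.

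Feedback regulators of p53 rose in 5 of 7 cases and fell in 1, where 18.4% of all genes tested rose and 15.4% fell. MDM2, the ubiquitin ligase that degrades p53, was read at 178, 180 and 180 CPM with DMSO and at 231, 240 and 237 CPM with talazoparib, a tight 1.32-fold rise (log2 fold change 0.40 ± 0.03, adjusted p = 4.67e-13, edgeR). TP53INP1 rose by 0.55 ± 0.04, while E2F7, a repressor of E2F targets that is itself a target of p53, fell by 0.61 ± 0.07 on the log2 scale. Of the repair genes under p53, 4 of 6 rose, among them the nucleotide excision repair factors DDB2 (0.73 ± 0.07) and XPC (0.43 ± 0.03), and FANCC fell by 0.43 ± 0.05. Among metabolic and other targets 13 of 16 rose and 3 did not pass the test. FDXR, ferredoxin reductase of the mitochondria, went from between 13.0 and 15.9 CPM to between 28.5 and 29.7 CPM (log2 fold change 1.01 ± 0.06), and GDF15, a secreted stress factor, from between 42.9 and 73.6 CPM to between 108 and 122 CPM (0.99 ± 0.13). TRIM22 had the highest log2 fold change of the list, 2.21 ± 0.25, from 13, 8 and 23 counts in the DMSO libraries.

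Genes of mitosis fell without exception. All 66 tested passed as lower with talazoparib, beside 15.4% of all genes, and their median log2 fold change was -0.49. The members covered cyclins, kinases and phosphatases (16 of 16), the kinetochore and spindle (34 of 34) and the condensation and separation of chromosomes (16 of 16), with medians of -0.47, -0.53 and -0.48. In bulk RNA, fewer cells in mitosis and less of these RNAs per cell cannot be told apart. KIF14, a kinesin of cytokinesis, was read at 42.7, 45.5 and 46.1 CPM with DMSO and at 25.0, 23.3 and 25.7 CPM with talazoparib, the largest fall of the list (log2 fold change -0.86 ± 0.05, adjusted p = 5.94e-15, edgeR). MKI67, which encodes the proliferation marker Ki-67 on the surface of mitotic chromosomes, varied more between replicates, with 227, 272 and 301 CPM against 170, 142 and 162 CPM (-0.76 ± 0.09, adjusted p = 1.14e-05). KNL1, the kinetochore scaffold, had -0.78 ± 0.05, CENPA, the centromeric histone, -0.72 ± 0.08, the mitotic kinase PLK1 -0.59 ± 0.05, and separase, encoded by ESPL1, -0.58 ± 0.07. CCNB1, the cyclin that drives entry into mitosis, was read at 198, 203 and 204 CPM against 159, 149 and 155 CPM, a 1.31-fold fall.

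Many promoters of mitotic genes are known to hold a cell cycle homology region (CHR, letters TTTGAA) close to the start and CCAAT boxes upstream, and both were searched on both strands of the 250 bases before the RefSeq start. Of 56 mitotic genes with a promoter in the RefSeq table (GRCh38.p14), 29 (51.8%) held a CHR and 41 (73.2%) a CCAAT, and 24 (42.9%) held both. KIF14 and CCNB1 were among those with a CCAAT and no CHR. Of the 27305 promoters in the table, 13.6% held a CHR, 33.0% a CCAAT and 4.85% both, and over the 12283 tested genes with a promoter the shares were 8.56%, 35.3% and 3.54%. A match is a description of letters and not evidence of binding. The promoters of ESPL1 (chr12:53268049-53268298, plus strand) and MKI67 (chr10:128126424-128126673, minus strand) are printed because both genes fell, both hold both motifs and neither window overlaps an annotated exon, with capitals marking the CHR and the CCAAT in either orientation.
ESPL1: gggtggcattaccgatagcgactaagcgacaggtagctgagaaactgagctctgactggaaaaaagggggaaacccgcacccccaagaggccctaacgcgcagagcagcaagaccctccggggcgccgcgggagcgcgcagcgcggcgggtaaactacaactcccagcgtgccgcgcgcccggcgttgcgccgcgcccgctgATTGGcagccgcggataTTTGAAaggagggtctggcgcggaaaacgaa
MKI67: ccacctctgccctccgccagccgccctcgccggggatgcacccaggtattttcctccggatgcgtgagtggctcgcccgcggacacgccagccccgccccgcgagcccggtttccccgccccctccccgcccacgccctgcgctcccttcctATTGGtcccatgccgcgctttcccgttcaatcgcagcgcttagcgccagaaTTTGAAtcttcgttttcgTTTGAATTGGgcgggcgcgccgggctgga
In ESPL1 the CHR begins 31 bases before the start and the CCAAT 48 bases before it. In MKI67 there are CHR matches 47 and 29 bases and CCAAT matches 98 and 24 bases before the start, and the last CHR and CCAAT overlap in their letters. CENPA and PLK1, whose windows overlap annotated exons and are not printed, hold a CHR 18 and 29 bases before the start.

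Replication genes fell almost as uniformly but by less. Of 59 tested, 56 were lower (94.9%, beside 15.4% of all genes) and 1 was higher with talazoparib, with a median log2 fold change of -0.36. All 21 genes of origin licensing and firing fell, as did 23 of 25 for polymerases and the replication fork and 12 of 13 for nucleotides and the start of S phase. CDC45, part of the replicative helicase, was read at 43.1, 47.3 and 49.7 CPM with DMSO and at 34.1, 26.5 and 30.3 CPM with talazoparib (log2 fold change -0.63 ± 0.07), RRM2, the small subunit of ribonucleotide reductase, at 172, 189 and 217 CPM against 142, 114 and 131 CPM (-0.58 ± 0.08), and E2F8, a repressor of the E2F family, had -0.59 ± 0.08. CCNE1, which starts S phase with CDK2, was the gene that rose (0.21), while its relative CCNE2 fell (-0.55). Promoters of replication genes rarely held a CHR (1 of 49), and 8 of 49 (16.3%) held an E2F site (TTTCGCGC or TTTGGCGC), against 0.996% of all promoters and 1.79% of the mitotic ones.

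Homologous recombination, Fanconi and checkpoint genes, on which cells given a PARPi depend, were mostly lower. Of 51 tested, 40 fell (78.4%, beside 15.4% of all genes) and 11 did not pass the test, with a median log2 fold change of -0.33, and by role 21 of 27 recombination genes, 9 of 11 Fanconi genes and 10 of 13 checkpoint genes fell. BRCA2, a mediator of homologous recombination, was read at 76.2, 91.4 and 102 CPM with DMSO and at 54.6, 41.3 and 48.6 CPM with talazoparib. The DMSO libraries spread widely, yet all lay above all talazoparib libraries (log2 fold change -0.91 ± 0.11, adjusted p = 7.11e-06, edgeR). BRCA1 was read at 71.8, 80.3 and 82.8 CPM against 60.5, 53.2 and 56.9 CPM (-0.47 ± 0.05), FANCD2, the ubiquitinated core of the Fanconi pathway, had -0.62 ± 0.06, and the helicase BLM had -0.57 ± 0.08. ATM, the kinase that responds to double-strand breaks, was read at 50.7, 59.6 and 58.5 CPM against 50.4, 49.9 and 49.5 CPM (-0.18 ± 0.06, adjusted p = 0.0182), and this call was lost without DMSO B (adjusted p = 0.111) or DMSO C (0.0991).

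**Figure D2:**
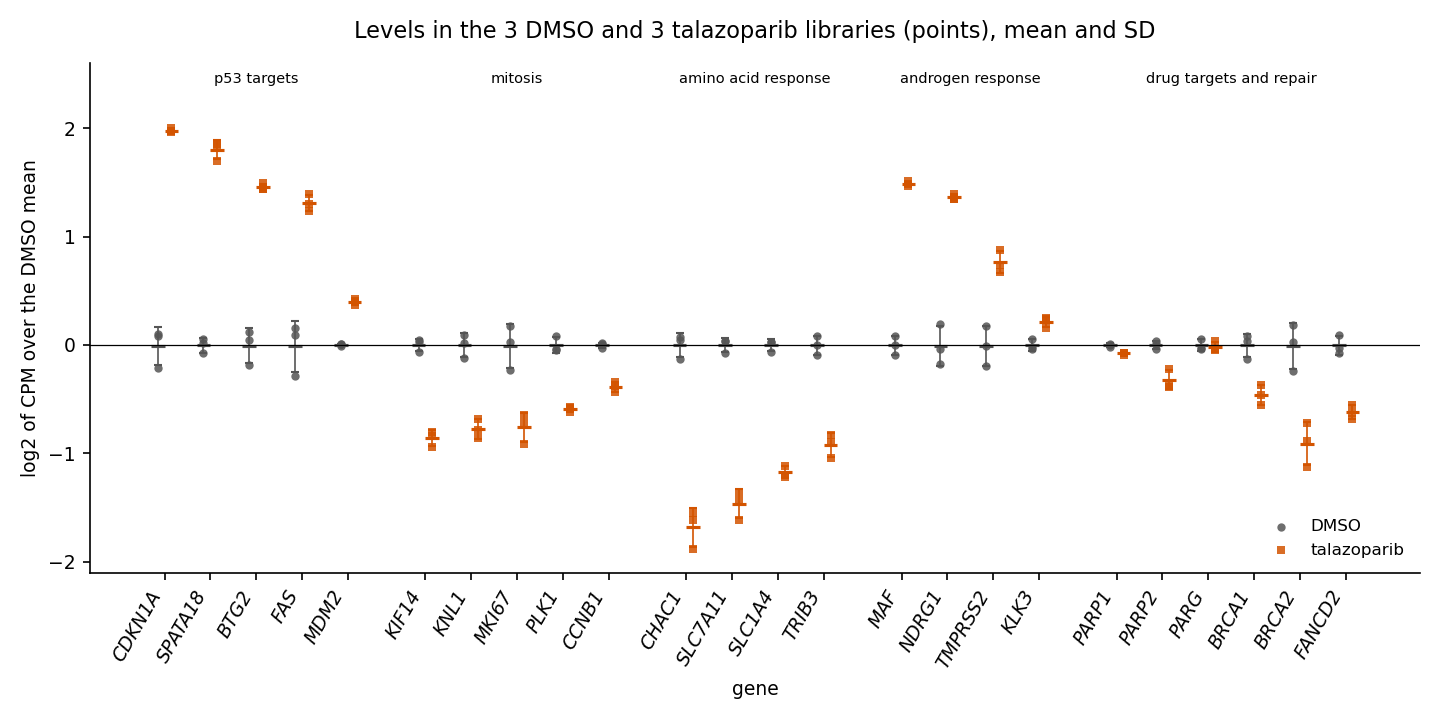
Level of 24 genes in each library, as log2 of its CPM over the mean of the 3 DMSO libraries (vertical axis), for DMSO (grey circles) and talazoparib (orange squares), with bars for the mean and SD of 3 libraries. The p53 targets lie above the DMSO libraries and the mitotic, amino acid and recombination genes below them, while PARG overlaps with DMSO.

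Regulators of the G1 phase rose about as often as all genes and fell more often. Of 14 D cyclins, their kinases, retinoblastoma proteins and CDK inhibitors, 3 rose (21.4%, beside 18.4% of all genes) and 7 fell (50.0%, beside 15.4%), a count of 7 that dropped to 4 without DMSO B or without talazoparib B. CDKN2C, which inhibits CDK4 and CDK6, fell from 24.2, 21.9 and 23.9 CPM to 14.2, 13.4 and 13.4 CPM (log2 fold change -0.77 ± 0.07), and CDKN1B was lower by a small amount (-0.15). CDKN1C, a relative of CDKN1A, was low, with 1.87, 1.02 and 1.11 CPM against 1.89, 2.48 and 2.25 CPM (0.74 ± 0.20). MYC was higher with talazoparib, at 152, 137 and 128 CPM against 185, 182 and 180 CPM (0.39 ± 0.06, adjusted p = 5.06e-05, edgeR). Of 30 genes of the MYC and ribosome biogenesis list, 5 rose (16.7%) and 8 fell (26.7%), and the 8 became 4 without DMSO C and 12 with total count scaling. Among the latter were UTP20 (-0.45) and TCOF1 (-0.42), and the median of the list was 0.02, as over all genes, and -0.03 with total count scaling.

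The amino acid response fell broadly. This list comprises genes known to be switched on by the transcription factor ATF4 when amino acids are short, and 27 of its 32 members were lower (84.4%, beside 15.4% of all genes) and 1 was higher, with a median log2 fold change of -0.51. Transporters fell in 7 of 8 cases (median -0.66), genes of synthesis and redox balance in 12 of 14 and regulators in 8 of 10. SLC1A4 was read at 31.6, 31.6 and 29.6 CPM with DMSO and at 13.3, 14.3 and 13.5 CPM with talazoparib (log2 fold change -1.17 ± 0.06, adjusted p = 4.62e-16, edgeR), and TRIB3 at 71.8, 67.8 and 63.5 CPM against 32.8, 38.1 and 36.4 CPM (-0.91 ± 0.06). ATF4 itself was lower (-0.50), as were PSAT1 (-0.85) and PHGDH (-0.51) of serine synthesis and ASNS (-0.83), which makes asparagine. DDIT4, an inhibitor of mTORC1, was the member that rose, from 56.6, 49.5 and 47.4 CPM to 77.2, 82.5 and 74.8 CPM (0.62 ± 0.10).

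Cytosolic aminoacyl-tRNA synthetases, several of which ATF4 is known to drive, fell in 12 of 18 cases (66.7%, beside 15.4% of all genes) and rose in 2, with a median of -0.24. GARS1, for glycine, was read at 343, 337 and 316 CPM with DMSO and at 218, 236 and 238 CPM with talazoparib (log2 fold change -0.52 ± 0.03), CARS1, for cysteine, had -0.51 ± 0.04 and MARS1, for methionine, -0.43 ± 0.03. Of 24 promoters of the amino acid response list, 3 (12.5%) held an ATF4 element (TGATGNAA), against 3.19% of all promoters, and CHAC1 was one of them, with the element 209 bases before the start. Chaperones of the endoplasmic reticulum, another arm of the stress response, had 4 of 22 members higher (18.2%) and 3 lower (13.6%), near the 18.4% and 15.4% of all genes, and a median of -0.02, and with total count scaling 3 were higher and 9 lower. HSPA5, the main chaperone there, rose by 0.18 ± 0.03 on the log2 scale, from between 921 and 978 CPM to between 1020 and 1120 CPM, while XBP1, a transcription factor of that response, fell by 0.28 ± 0.04.

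Androgen response genes were more often higher than lower. Of 53 tested, 28 rose (52.8%, beside 18.4% of all genes) and 7 fell (13.2%, beside 15.4%), with a median log2 fold change of 0.18, and with total count scaling these counts were 24 and 13. TMPRSS2, an androgen-driven surface protease, was read at 282, 249 and 219 CPM with DMSO against 399, 458 and 418 CPM with talazoparib (log2 fold change 0.77 ± 0.07, adjusted p = 6.47e-07, edgeR), and KLK3, which encodes prostate-specific antigen, at 1510, 1410 and 1430 CPM against 1710, 1720 and 1620 CPM (0.21 ± 0.04, adjusted p = 0.00108). Talazoparib libraries lay above all DMSO libraries for both. The largest rises were of MAF, a transcription factor, from 39.5, 37.3 and 34.9 CPM to 104, 103 and 106 CPM (1.49 ± 0.05), NDRG1, also known to respond to hypoxia and stress, from 178, 152 and 138 CPM to 396, 411 and 398 CPM (1.37 ± 0.09), and AKAP12, a scaffold of protein kinase A (1.18 ± 0.15). Among those that fell were CDH26 (-0.59), SPDEF (-0.22), FOXA1 (-0.22), a pioneer factor, and FOLH1 (-0.12), which encodes the membrane antigen PSMA.

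Interferon-stimulated genes rose more often than all genes and fell about as often. Of 47 tested, 20 rose (42.6%, beside 18.4% of all genes) and 7 fell (14.9%, beside 15.4%), with a median log2 fold change of 0.26, and without talazoparib B 13 rose. STING1, the adaptor that signals cytosolic DNA, was read at 2.92, 2.79 and 2.56 CPM with DMSO and at 6.14, 6.97 and 5.89 CPM with talazoparib (1.20 ± 0.12, adjusted p = 3.32e-10, edgeR). GBP2, a guanylate-binding protein, was near the limit of detection with 2, 4 and 16 counts in the DMSO libraries (1.91 ± 0.35), as was UBA7, which activates ISG15, with 6, 11 and 8 counts (1.33 ± 0.26). OASL (1.20), IFITM1 (0.91), IFIT2 (0.87) and OAS1 (0.86) rose, whereas OAS3 (-0.48), USP18 (-0.34) and CMPK2 (-0.65) fell and MX1 (0.31) and IFIT1 (0.49) did not pass the test.

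Of 22 antigen presentation genes, 8 (36.4%) rose, beside 18.4% of all genes, 1 fell and 13 did not pass the test, with a median of 0.19 (0.12 without DMSO C). B2M, the light chain shared by class I molecules, was read at 205, 194 and 189 CPM with DMSO and at 266, 277 and 274 CPM with talazoparib (log2 fold change 0.47 ± 0.03, adjusted p = 1.78e-13, edgeR). HLA-B was higher by 0.46 ± 0.07 and HLA-DMA, which helps to load class II molecules, by 0.95 ± 0.10, although reads of HLA genes can be split between near-identical relatives. Of 21 genes of NF-kB signaling and secreted inflammatory factors, 7 rose (33.3%), 1 fell and 13 did not pass the test, with a median of 0.38. That median was 0.23 without DMSO C, without talazoparib A or without talazoparib B. LIF, GDF15 and RELB (1.01 ± 0.23), a subunit of the non-canonical pathway, were the largest of the 7 that rose, while IL18 (1.26) and TNFAIP3 (0.38) did not pass the test.

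Matrix and adhesion genes rose in 24 of 48 cases (50.0%, beside 18.4% of all genes) and fell in 5 (10.4%, beside 15.4%), with a median of 0.26, and among collagens and laminins 17 of 30 rose and 13 did not pass the test. Several of them were scarcely read: COL17A1, a hemidesmosome collagen, had 3, 0 and 1 counts in the DMSO libraries and 15, 14 and 9 counts with talazoparib, and LAMB3, a laminin chain, 9, 18 and 15 counts with DMSO and 44, 44 and 72 with talazoparib. The call for COL5A1 (1.44 ± 0.52, adjusted p = 0.0351) was lost when any of DMSO A, DMSO B, talazoparib A or talazoparib C was left out (adjusted p from 0.0801 to 0.125). Fatty acid oxidation genes rose in 20 of 37 cases (54.1%) and fell in 2 (median 0.15), and without single libraries 1 to 4 fell. The rises were led by ACOX2, a peroxisomal oxidase, from 14.2, 13.0 and 11.5 CPM to 21.6, 23.2 and 23.1 CPM (0.82 ± 0.08), ACAD8 (0.43 ± 0.05) and CROT (0.42 ± 0.06). Genes of cholesterol and fatty acid synthesis went both ways, with 8 of 37 higher (21.6%) and 13 lower (35.1%) and a median of -0.09, or 5 and 19 with total count scaling. ELOVL5, an elongase of unsaturated fatty acids, rose from between 936 and 953 CPM to between 1350 and 1370 CPM (0.53 ± 0.02), TM7SF2, a sterol reductase, rose by 0.70 ± 0.04, and INSIG1, which holds back sterol synthesis, fell by 0.35 ± 0.03.

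Of the 13 mRNAs encoded by mitochondrial DNA, 12 rose (92.3%, beside 18.4% of all genes) and 1 did not pass the test, with a median of 0.43, together with the rise in the mitochondrial share of the counts given above. MT-CO1, a subunit of cytochrome c oxidase, was read at 17000, 17400 and 16100 CPM with DMSO and at 22200, 24900 and 24300 CPM with talazoparib (log2 fold change 0.50 ± 0.06, adjusted p = 8.66e-06, edgeR). Clustered histone genes rose in 10 of 43 cases (23.3%) and fell in 5 (11.6%), near the 18.4% and 15.4% of all genes, with a median of 0.16. Without single libraries 3 to 5 of them fell. H2BC18 (0.83 ± 0.13) and H4C16 (0.82 ± 0.16) rose, and H4C3 (-1.40 ± 0.44, adjusted p = 0.0113) was at under 1 CPM in all 6 libraries and lost its call without DMSO B (adjusted p = 0.0728) or talazoparib B (0.0665). Most histone mRNAs carry no poly(A) tail, and the libraries were made by mRNA capture, and the part of capture in these values was not tested.

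**Figure D3:**
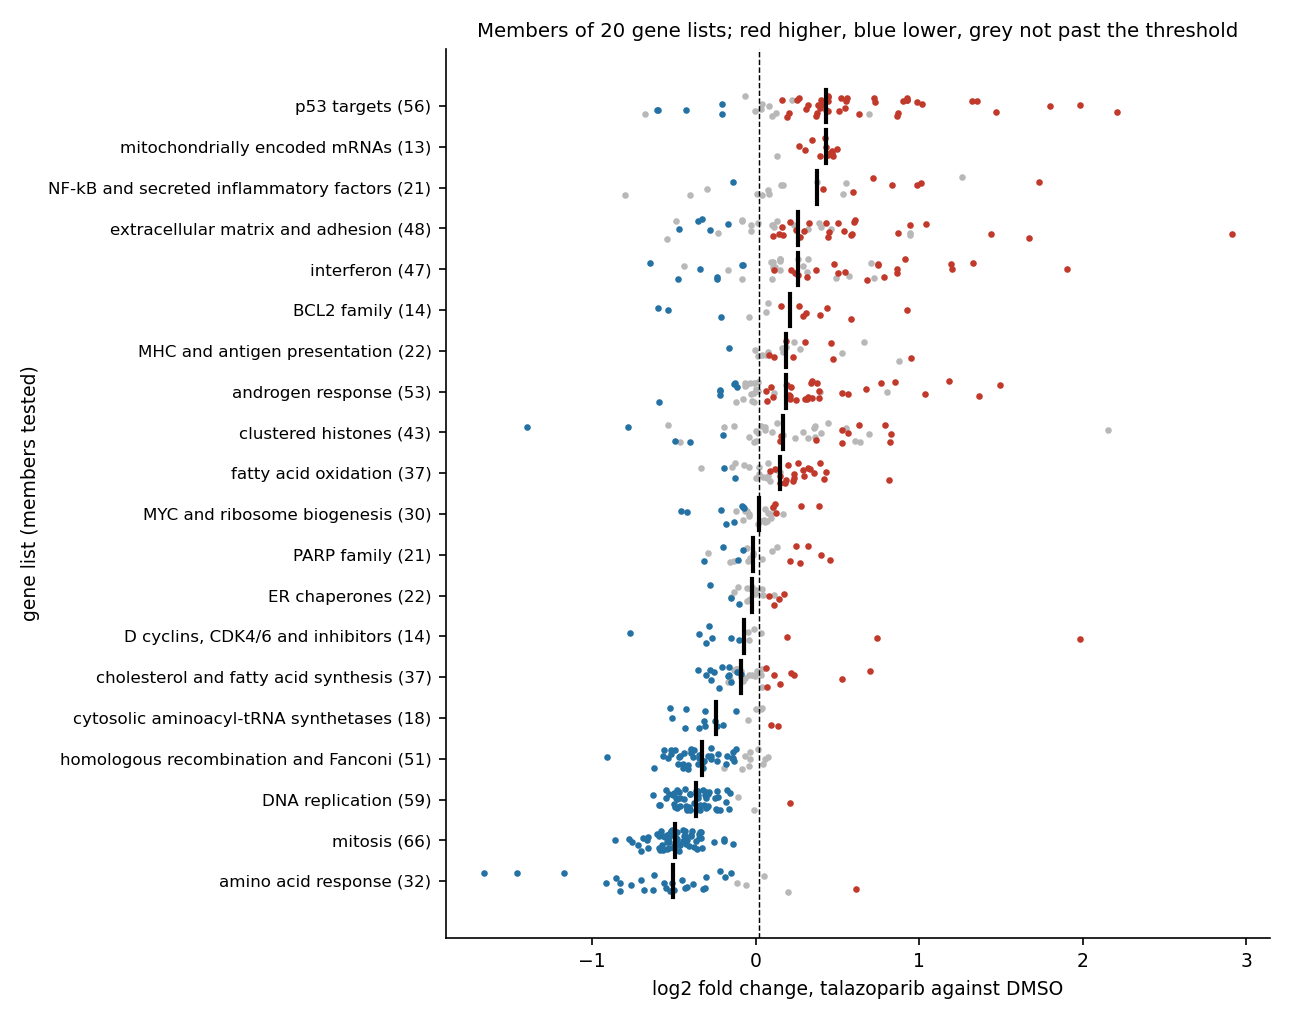
Log2 fold change of talazoparib against DMSO (horizontal axis) for each tested member of 20 gene lists (rows, with the number tested), in red where higher, blue where lower and grey where not past the threshold. Black bars are list medians and the dashed line the median of all genes, 0.02. The amino acid response and mitosis lists have the lowest medians (-0.51 and -0.49), and p53 targets and mitochondrially encoded mRNAs the highest (0.43 each).

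Some non-coding RNAs with high counts, chosen for description after their values were seen, also differed. PURPL, a long non-coding RNA known as a target of p53, was read at 4.55, 4.86 and 5.04 CPM with DMSO and at 12.4, 13.2 and 11.5 CPM with talazoparib (log2 fold change 1.35 ± 0.12, adjusted p = 1.27e-09, edgeR). NEAT1, the scaffold of paraspeckles, went from 702, 551 and 611 CPM to 1140, 977 and 864 CPM (0.68 ± 0.13), and PART1, a prostate androgen-regulated transcript, from between 7.94 and 8.59 CPM to a mean of 14.6 CPM (0.83 ± 0.09). The RNA of the signal recognition particle, which is made by RNA polymerase III and has no poly(A) tail, moved far more. RN7SL2 was read at 19.0, 39.7 and 41.0 CPM with DMSO and at 239, 350 and 306 CPM with talazoparib (3.14 ± 0.74, adjusted p = 0.00375), and its near-identical copy RN7SL1 at 10.9, 20.3 and 24.5 CPM against 109, 176 and 146 CPM. RN7SL2 was read at 124, 231 and 204 CPM with olaparib and varied widely among the 3 libraries of enzalutamide with talazoparib, from 72.2 to 564 CPM, and the 3 DMSO values lay below every library of olaparib, enzalutamide and the combination.

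Olaparib, the other PARPi of the panel, was given at 1 µM against 10 nM of talazoparib, so the doses were not matched and the differences are between these doses. Talazoparib differed from olaparib in 1557 genes (8.36% of those tested, edgeR's quasi-likelihood test), of which 580 (3.11%) were higher with talazoparib and 977 (5.25%) lower. This count rested on single libraries: it was 595 without talazoparib C, 752 without talazoparib B, 751 without olaparib C, 998 without olaparib A and 1035 without olaparib B. In the mitosis list 8 of 66 members were lower with talazoparib than with olaparib and 58 did not pass the test, with a median difference of -0.01, and in the p53 list 11 of 56 were lower and 1 higher (median -0.08). CDKN1A was slightly lower with talazoparib (log2 difference -0.19, adjusted p = 0.0162). In the amino acid response list 10 of 32 were higher and 1 lower with talazoparib (median 0.06), and among the aminoacyl-tRNA synthetases 8 of 18 were higher and 1 lower. BCAT1, which fell against DMSO, was 0.41 higher on the log2 scale with talazoparib than with olaparib (adjusted p = 5.10e-05).

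Among the named genes that passed this test MID1, a ubiquitin ligase of microtubules, was furthest below its level with olaparib, at 0.421, 0.395 and 0.630 CPM with olaparib and 0.287, 0.174 and 0.254 CPM with talazoparib (log2 difference -1.01 ± 0.30, adjusted p = 0.0296, edgeR). These low levels lay below the minimum of 100 counts for naming a gene by this comparison, and MID1 was named for its interaction with enzalutamide. TNNT1, a troponin, was furthest above its level with olaparib (0.74 ± 0.17, adjusted p = 0.00651), followed by AS3MT, an arsenic methyltransferase (0.67 ± 0.15, adjusted p = 0.00331), and both were read at under 4 CPM. DDIT4 was read at 56.8, 46.5 and 49.2 CPM with olaparib, close to DMSO, and was 0.62 ± 0.10 higher on the log2 scale with talazoparib (adjusted p = 0.00133, edgeR). DUSP1, a phosphatase of MAP kinases, was read at 11.8, 13.0 and 13.9 CPM with olaparib and at 8.09, 8.61 and 8.75 CPM with talazoparib (log2 difference -0.60 ± 0.08, adjusted p = 6.99e-06). ID1, an inhibitor of differentiation factors, was read at 19.2, 21.6 and 22.4 CPM with olaparib against 15.7, 11.1 and 11.9 CPM (-0.72 ± 0.15), and H1-4, a linker histone, at 5.53, 7.08 and 7.73 CPM against 3.47, 4.17 and 3.69 CPM (-0.84 ± 0.20). Talazoparib libraries lay below all olaparib libraries for these 3 genes.

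The effect of talazoparib was measured a second time between groups that the comparison with DMSO did not compare, as enzalutamide with talazoparib against enzalutamide alone. Both comparisons came from the same fit and shared its filter, its scaling and its estimate of the spread. Enzalutamide is a drug that blocks androgen signaling. In that background 6414 genes passed the threshold (34.4% of those tested, edgeR's quasi-likelihood test), 3077 (16.5%) higher and 3337 (17.9%) lower. More were higher than lower without single libraries of the combination (2940 and 2762 without A, 2796 and 2553 without B, 2880 and 2508 without C). The same was so without a filter on low counts (3095 and 2914), with a stricter one (3270 and 3079) and when only the groups compared were fitted (3364 and 3306). Of these, 3463 (18.6% of those tested) were called in the same direction as without enzalutamide, 55.0% of the genes called against DMSO and 54.0% of those called with enzalutamide, and 235 were called in opposite directions. The log2 fold changes of both comparisons had a Pearson correlation of 0.64 across the genes called against DMSO and of 0.28 across all genes tested, and genes are no independent replicates.

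Most mitosis and p53 genes called without enzalutamide were called in the same direction with it. In that background 64 of 66 mitotic genes fell and 2 did not pass the test (median -0.46), and 39 of 56 p53 targets rose and 4 fell (median 0.48), beside 16.5% and 17.9% of all genes. Of the 46 p53 targets called against DMSO, 39 were called in the same direction, and E2F7 and GDF15 were among those that were not. By the interaction test, which called 5.32% of all genes up and 7.28% down, 3 mitotic genes were shifted up and 2 down, and 7 p53 targets up and 3 down. These small counts rest on single libraries. The mitotic ones ran from 1 (without DMSO C, enzalutamide A or enzalutamide B) to 7 (without talazoparib A) up. They ran from 0 (without talazoparib A, talazoparib C or combination C) to 4 (without talazoparib B) down. The p53 ones ran from 6 (without DMSO A) to 10 (without DMSO C) up and from 2 to 4 down. CDKN1A was read at 58.9, 62.8 and 61.4 CPM with enzalutamide and at 268, 265 and 267 CPM with the combination, a log2 fold change of 2.13, and its difference from the effect without enzalutamide was 0.14 (adjusted p = 0.241 for the interaction, 95% interval -0.01 to 0.30). CHAC1 (-1.82), SLC7A11 (-1.61) and CEL (2.58) also had their large changes in that background, and for CHAC1 and SLC7A11 the interaction did not pass the test (adjusted p = 0.63 and 0.383).

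The size of the effect differed between backgrounds for 2346 genes by the interaction test (12.6% of those tested), with 991 (5.32%) shifted up by enzalutamide and 1355 (7.28%) shifted down. This balance turned with total count scaling (1216 up and 944 down) and with the stricter filter on low counts (1292 and 1096). It also turned without single talazoparib libraries (1312 and 977 without A, 973 and 751 without B, 1079 and 747 without C) and without single libraries of the combination (1185 and 937 without A, 1023 and 767 without B, 992 and 692 without C). In the amino acid response list, 17 of 32 members had an effect shifted down by enzalutamide and 15 did not pass the test, and the median went from -0.51 to -0.72. In the enzalutamide background 28 members were lower, beside 17.9% of all genes. TRIB3 was read at 54.7, 54.7 and 56.6 CPM with enzalutamide and at 23.8, 21.8 and 23.6 CPM with the combination (log2 fold change -1.26, interaction adjusted p = 0.00406). Aminoacyl-tRNA synthetases followed, with 13 of 18 shifted down, as did chaperones of the endoplasmic reticulum, with 13 of 22 shifted down and 16 lower with enzalutamide, beside the same 17.9% of all genes.

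A minority of replication and recombination genes had effects shifted up. Of 59 replication genes, 13 had an effect shifted up, beside 5.32% of all genes, and 46 did not pass the test, with 43 lower in the enzalutamide background, beside 17.9% of all genes (median -0.22), and of 51 recombination, Fanconi and checkpoint genes 13 were shifted up and 1 down, with 27 lower (median -0.16). The replication count of 13 became 7 without DMSO C, 25 without DMSO A and 21 without talazoparib A, and the recombination count became 8 without DMSO C. FANCD2 went from -0.62 without to -0.17 with enzalutamide (interaction adjusted p = 0.000579), and BRCA1 from -0.47 to -0.18 (0.00943). ATM was lower without and higher with it, at -0.18 and 0.21 (0.00209).

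Of 22 antigen presentation genes, 9 had an effect shifted down by the interaction test, which shifted 5.32% of all genes up and 7.28% down, and 13 did not pass it. With enzalutamide 3 rose and 4 fell, and B2M was read at 122, 116 and 118 CPM with enzalutamide and at 129, 127 and 123 CPM with the combination (log2 fold change 0.10, interaction adjusted p = 1.01e-06). Of the interferon genes, 11 of 47 rose and 3 fell with enzalutamide, beside 16.5% and 17.9% of all genes, and by the interaction test 2 were shifted up, 6 down and 39 did not pass. Without talazoparib C 3 were shifted down, without enzalutamide A none was shifted up, and without DMSO B or DMSO C 1 was. STING1 went from a log2 fold change of 1.20 to 0.30 (interaction adjusted p = 0.000231). IL32, a cytokine, was at 1.70, 1.60 and 1.41 CPM with enzalutamide and at 1.80, 1.77 and 1.52 CPM with the combination, groups that overlapped (0.12, interaction adjusted p = 5.46e-06). NDRG1 was read at 68.7, 71.5 and 60.8 CPM with enzalutamide and at 76.4, 73.0 and 70.9 CPM with the combination (0.14, interaction adjusted p = 1.43e-05), and its level with enzalutamide was already below that with DMSO.

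**Figure D4:**
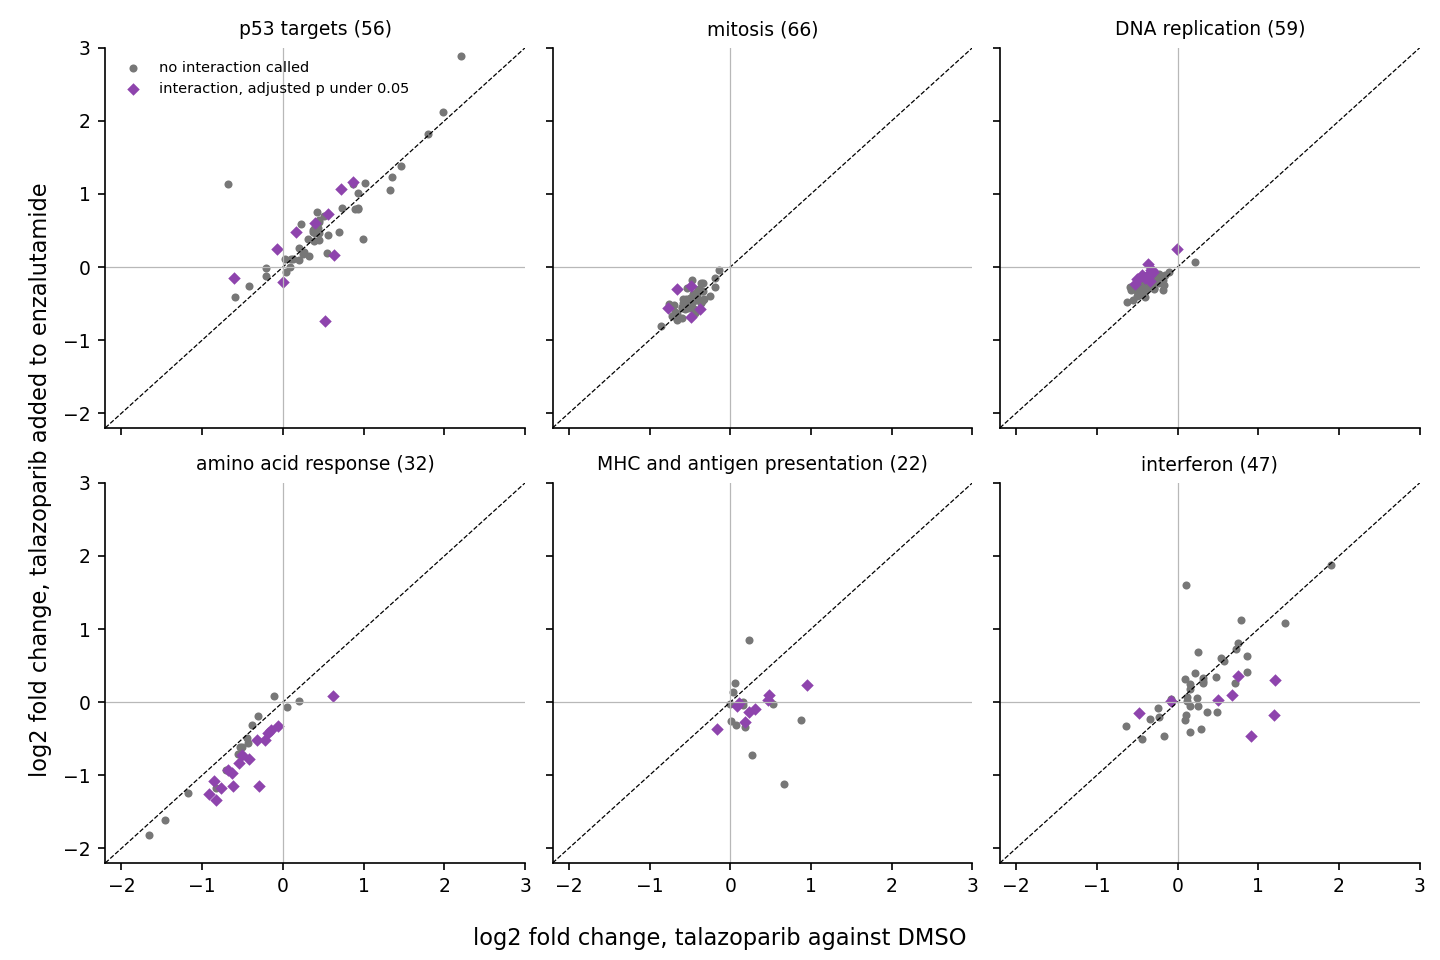
Log2 fold change of talazoparib added to enzalutamide (vertical axis) against that of talazoparib against DMSO (horizontal axis) for the tested members of 6 gene lists, 1 panel each. Purple diamonds had an interaction with an adjusted p under 0.05, grey circles did not, and the dashed line marks equal effects. Mitotic genes lie near the line in the lower left, most amino acid response genes below the line, and most replication genes above it.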

How the data were processed

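RNA was read in 39 stranded mRNA libraries of C4-2B cells, of which the 21 of the 5-day panel entered the fit. Per the labels and the study's methods, the authors used Trim Galore for trimming, STAR for alignment (GRCh38) and Salmon for quantification by gene, and the deposited expected counts are whole numbers without normalization. How they were rounded is not given in the sources used here. Total counts of the 6 libraries were 29707578 to 49833473, and precision is limited by these depths and by 3 libraries per group. Gene names and coordinates came from GENCODE, an earlier release than the authors', and covered 62666 of 63187 IDs.

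From the deposited counts, edgeR 4.0.16 (R 4.3.3) gave TMM-scaled CPM, log2 fold changes with SE and quasi-likelihood p-values in one fit of 7 groups, after filterByExpr, with Benjamini-Hochberg adjustment over 18625 genes and a threshold of 0.05. DESeq2 1.42.0 was an alternative. The scripts were tested on simulated counts. Comparisons were talazoparib against DMSO, against olaparib, added to enzalutamide, and the interaction. Lists of genes, written from general knowledge, and the comparison itself were chosen with earlier results of these data known. Lists are described by counts and medians without a set test. Named genes were the 12 largest rises and falls among protein-coding genes whose higher group averaged 100 counts or more, the 3 largest changes of each list (and of each role for p53 targets and mitosis), a few fixed genes, and the 4 largest differences in each direction for the olaparib comparison and the interaction. Some of these are not described, and other members are given as examples, chosen after their values were seen. Any result that needs a withheld item is left out.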

Additional observations from a re-analysis of the deposited data

Results flagged for a closer look

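Of the genes named by the rules given for processing, 46 had an effect of talazoparib that differed with and without enzalutamide by the interaction test of edgeR's quasi-likelihood fit (adjusted p from 1.40e-08 to 0.0448). Values below are the interaction on the log2 scale, which is the effect with enzalutamide minus the effect without it, from 3 libraries per group. Negative interactions with deeper falls, or with a smaller rise in the case of DDIT4, were measured for amino acid genes and tRNA synthetases, BCAT1 (-0.28), TRIB3 (-0.35), NIBAN1 (-0.64), DDIT4 (-0.54), CARS1 (-0.33), GARS1 (-0.36) and MARS1 (-0.33). Genes of the endoplasmic reticulum had DNAJB11 (-0.15), HSPA5 (-0.29) and XBP1 (-0.46). In antigen presentation they were B2M (-0.38), HLA-B (-0.43) and HLA-DMA (-0.72), with STING1 (-0.90) and IL32 (-1.62) among immune genes, and MT-CO1 (-0.32) and MT-CO2 (-0.29) in mitochondrial mRNAs.

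Effects that were smaller with enzalutamide were also measured for genes that had risen against DMSO, ELOVL5 (-0.26), TM7SF2 (-0.22), NDRG1 (-1.23), ESPN (-1.08), TUBA1A (-0.96), CEL (-0.55) and PLA2G4D (-1.71). Positive interactions were found for BRCA1 (0.28), FANCD2 (0.45), ATM (0.38), E2F7 (0.45) and KNL1 (0.22), which are repair, cell cycle and kinetochore genes, and for the p53 feedback genes MDM2 (0.21) and TP53INP1 (0.17). They were also found for genes whose fall was smaller with enzalutamide, GLI3 (0.70), PAG1 (0.79), CA8 (0.56) and ARHGAP11B (0.63).

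For some genes the fitted effect had opposite signs in the backgrounds. MID1 (2.07), MCTP1 (1.67), ID1 (0.93) and DUSP1 (0.45) were lower with talazoparib alone and had a positive fitted effect with enzalutamide, as ATM did. Not all of these positive effects passed the test, among them that of ID1 (adjusted p = 0.0713, edgeR's quasi-likelihood test). CDKN1C (-1.07) and HSPA5 went from 0.74 and 0.18 to -0.33 and -0.12. MAB21L4 (-1.17) and TNNT1 (-0.87) had values of 0.11 and 0.22 without enzalutamide and -1.06 and -0.66 with it. NNMT (1.49) had effects of -0.08 without enzalutamide and 1.41 with it. CTNNA2 (1.40) had the same sign in both backgrounds, with effects of 0.67 without enzalutamide and 2.06 with it. It was near the limit of detection with enzalutamide (0.0667, 0.165 and 0.0957 CPM) and with the combination (0.5, 0.306 and 0.673 CPM). Its mean was 3.82 CPM with DMSO. The values of PLOD2 (-2.53) and TRIM49D1 (-4.45) rest on a rise of PLOD2 that lost its call when any 1 of 5 libraries was left out, and on reads that near-identical copies of TRIM49D1 can share.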

How the results depend on the processing

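The alternatives were DESeq2's size factors, total count scaling, no filter and a stricter filter on low counts, DESeq2's Wald test, a fit of only the groups compared, and leaving out each library of the groups compared. The 6300 genes called with talazoparib against DMSO became 6305 with DESeq2 and between 5165 and 6093 without single libraries, and the 6414 genes with enzalutamide became 5349 to 5702. For talazoparib against olaparib, 1557 genes became 2208 with DESeq2 and between 595 and 1821 without single libraries. For the interaction, 2346 became 1684 to 2588.

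Counts of list members in the more frequent direction of each list moved by over 1.5 times in 3 lists. Interferon genes higher were 13 to 17 without single libraries (20 with all). MYC and ribosome biogenesis genes lower were 5 without a filter, 5 in the fit of only the groups compared and 4 to 10 without single libraries (8 with all). D cyclin and CDK genes lower were 4 without a filter and 4 to 7 without single libraries (7 with all). In the less frequent direction, total count scaling gave 9 chaperones lower (3 with TMM), 13 androgen response genes lower (7), 7 PARP family genes lower (4), 5 cholesterol and fatty acid genes higher (8) and 3 MYC and ribosome biogenesis genes higher (5), and counts of 1 or 2 moved in replication, NF-kB and tRNA synthetase genes. The causes were not tested.

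Of 1505 repeats for named genes, 1482 kept their side of the threshold, 23 lost the call (in AS3MT, ATM, COL5A1, DUSP1, H4C3, PARP1 and PLOD2), and no called sign turned. The sign turned for MAB21L4 without DMSO C (-0.02) and PARG without DMSO B (0.02), which did not pass the test in any alternative. Replicate letters do not pair the libraries: the deviations of same-lettered libraries had correlations of -0.017, -0.007 and -0.056, and with a replicate block 6229 genes were called. In the lowest of 5 bins by count 8.45% of genes were called, with a median absolute log2 fold change of 1.45, and the part of depth in this was not tested.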
